A study of Mus musculus with 15 samples.

Results

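The cytosolic ribosomal protein genes were taken as the rows of both deposited tables whose symbol is Rpl or Rps followed by a number, with or without a final a or x, or Rplp0, Rplp1 or Rplp2. There were 75 such genes among 24421, with 46 in the large and 29 in the small subunit. The study compared mouse biliary epithelial cells after solvent or 4-OH tamoxifen. Per the labels the cells are an established line from the biliary ducts of adult C57BL/6 mice, and every group, controls included, carries the genotype ITR-CreERT2;Klf5flox/flox. CreERT2 is a recombinase that tamoxifen activates, and Klf5 flanked by loxP sites is then cut out. The 15 libraries fall into ethanol (EtOH) at 12 h (3 libraries), 4-OH Tamoxifen at 12 h (4), ethanol at 24 h (4) and 4-OH Tamoxifen at 24 h (4). As only cells with both alleles are in these groups, an effect of the agent and an effect of losing Klf5 cannot be told apart. The labels do not say that libraries of a group came from separate cultures, so the p-values only cover the scatter of these libraries, part of which can be technical. All groups come from this 1 line, and its growth form is described in 2 ways, as 3D in vitro in the title and as in vivo in the design text.

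A cytosolic ribosome is built from a small subunit, which reads the mRNA, and a large subunit, which joins amino acids, and each holds ribosomal RNA and a set of proteins made in near equal amounts. The mRNAs of these proteins begin with a run of pyrimidines at the transcription start, the terminal oligopyrimidine tract, through which their translation follows the nutrient kinase complex mTORC1 and the binding protein Larp1. They are among the most abundant mRNAs of dividing cells, and spare ribosomal proteins outside ribosomes can bind Mdm2 and so stabilise p53.

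Each table gives, for tamoxifen over ethanol within a time, the mean normalised count over the libraries, the log2 fold with its standard error (SE) and the Wald p of DESeq2. A gene was called where the Benjamini-Hochberg adjusted p in the authors' deposited table was under 0.05. The levels of each group given below are those that the mean, the fold and the numbers of libraries imply, and the overlap of single libraries was not analysed here. Klf5 itself fell by 1.29 (SE 0.23) at 12 h and by 1.72 (SE 0.077) at 24 h on the log2 scale in the authors' deposited table, from an implied 652 to 266 and from 938 to 285 normalised counts. The mean totals were 13.9 M normalised counts at 12 h and 11.8 M at 24 h. Of 14 biliary markers, Krt8, Krt18, Krt19 and Spp1 had means from 6700 (Krt19 at 24 h) to 48237 (Krt18 at 12 h), while Epcam was at 15.7 at 12 h and 9.56 at 24 h. Over this list the median of the means was 1132 at 12 h and 970 at 24 h, and the lowest mean was 1.69 and 0.50. The fibroblast, endothelial and immune lists held no gene with a mean over 76.4, and Alb was at 3.68 and 1.48 although Apoa1 reached 1291 and 448. An adjusted p existed at 12 h for 1 fibroblast, 0 endothelial, 2 immune and 4 hepatocyte genes. At 24 h the numbers were 1, 0, 1 and 2, so few genes of these non-biliary lists could be called. DESeq2 called 0 genes of these lists at either time, with 0 at an unadjusted p under 0.05. Biliary markers were called in both directions, among them Krt7 lower at 12 h, and Tspan8 and Krt19 lower and Onecut2 and Cldn4 higher at 24 h. Their part in the results below was not tested.

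At 24 h the ribosomal protein genes were slightly lower after tamoxifen, with close medians in both subunits, and other abundant coding genes with mRNAs of 401 to 800 bases had medians close to those of members of that length. Of 74 members with a p, 69 had a log2 fold below 0, and the median was -0.12, or 92.1% of the ethanol level (quartiles -0.17 and -0.062, range -0.34, in the sparsely counted Rpl30, to 0.11). Called lower were 8 members and called higher 0, where 6.52% of all genes with an adjusted p were called lower and 5.9% higher. At an unadjusted p under 0.05, 40 of the 74 members were lower and 1 higher, against 9.08% and 8.91% of all genes. Over all genes with a p the median was 0.0079, and 48.4% lay below 0. Among the 3249 genes with a mean of at least 1000, the median was -0.020, 57.8% lay below 0 and 12.5% were called lower, against 11.0% of the members with an adjusted p. At an unadjusted p under 0.05, 689 of these 3249 genes were lower and 417 higher. Summed over the members, the implied level after tamoxifen was 92.2% of that after ethanol. With each member centred on other coding genes of its transcript length, as described below, the median was -0.0047. These values are relative to all RNA sequenced, so fewer expressing cells and less of these mRNAs per cell cannot be told apart. The members were measured in the same libraries and are not independent of one another, so no error is given for the median.

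At 12 h the shift was smaller and no member was called. The median was -0.035 (quartiles -0.081 and 0.0049, range -0.46, in the sparsely counted Rps27, to 0.18), and 53 of 74 members were below 0, against a median of -0.0053 and 51.0% below 0 over all genes. The summed level of the members was 98.0% of that after ethanol. For the 3698 genes whose mean reached 1000 it was 98.1%, and for all genes 98.5%. These 3698 genes had a median of -0.020, and 57.6% of them lay below 0. In its sum the member set was thus close to abundant genes and to all genes at 12 h. DESeq2 called 0 members in either direction at 12 h, and 0 had an unadjusted p under 0.05, where the shares of all genes were 0.728% lower and 0.215% higher by adjusted p, and 2.92% and 1.97% by unadjusted p. The median SE of a member's fold was 0.15 at 12 h and 0.059 at 24 h, so the 95% interval of a typical member reached 0.29 to either side at 12 h and 0.11 at 24 h. A shift of the size seen at 24 h was therefore within the error of most single members at 12 h. Centring on other coding genes of like transcript length, described below, turned the median at 12 h to 0.0026.

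**Figure D1:**
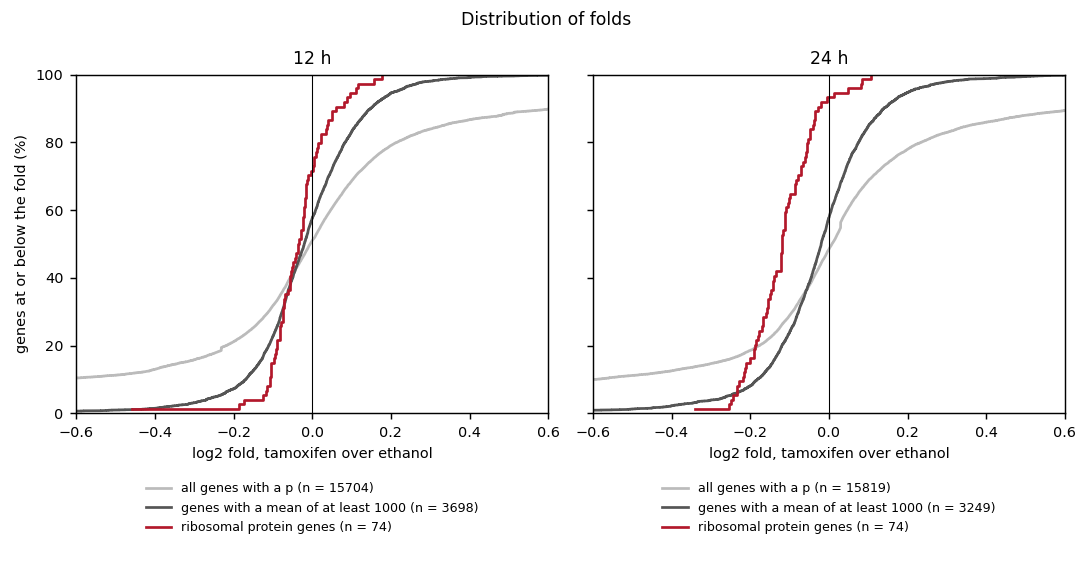
Share of genes (vertical axis, percent) at or below each log2 fold of tamoxifen over ethanol (horizontal axis) at 12 h and 24 h, for the 74 ribosomal protein genes with a p (red), genes with a mean of at least 1000 (dark grey) and all genes with a p (light grey). The red line lies left of both others over most of its length at 24 h, with a median of -0.12. At 12 h it is steeper than the light grey line and crosses it, with quartiles of -0.081 and 0.0049 against -0.15 and 0.15. Its median at 12 h, -0.035, is close to the -0.0053 of all genes and turns to 0.0026 once genes of like transcript length are used for centring.

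The medians of the subunits lay close together. At 24 h the median was -0.12 for the 45 large subunit genes with a p and -0.12 for the 29 of the small subunit. Below 0 were 42 of 45 and 27 of 29, and the summed levels after tamoxifen were 92.4% and 91.7% of those after ethanol. Called lower were 6 large and 2 small subunit genes, 13.6% and 6.90% of those with an adjusted p, against 6.52% of all genes. At 12 h the medians were -0.029 and -0.049, with 32 of 45 and 21 of 29 below 0 and sums of 98.2% and 97.7%. Under length centring the large subunit median at 12 h was 0.0091 and that of the small subunit -0.0054. The difference between the subunits was not tested.

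**Figure D2:**
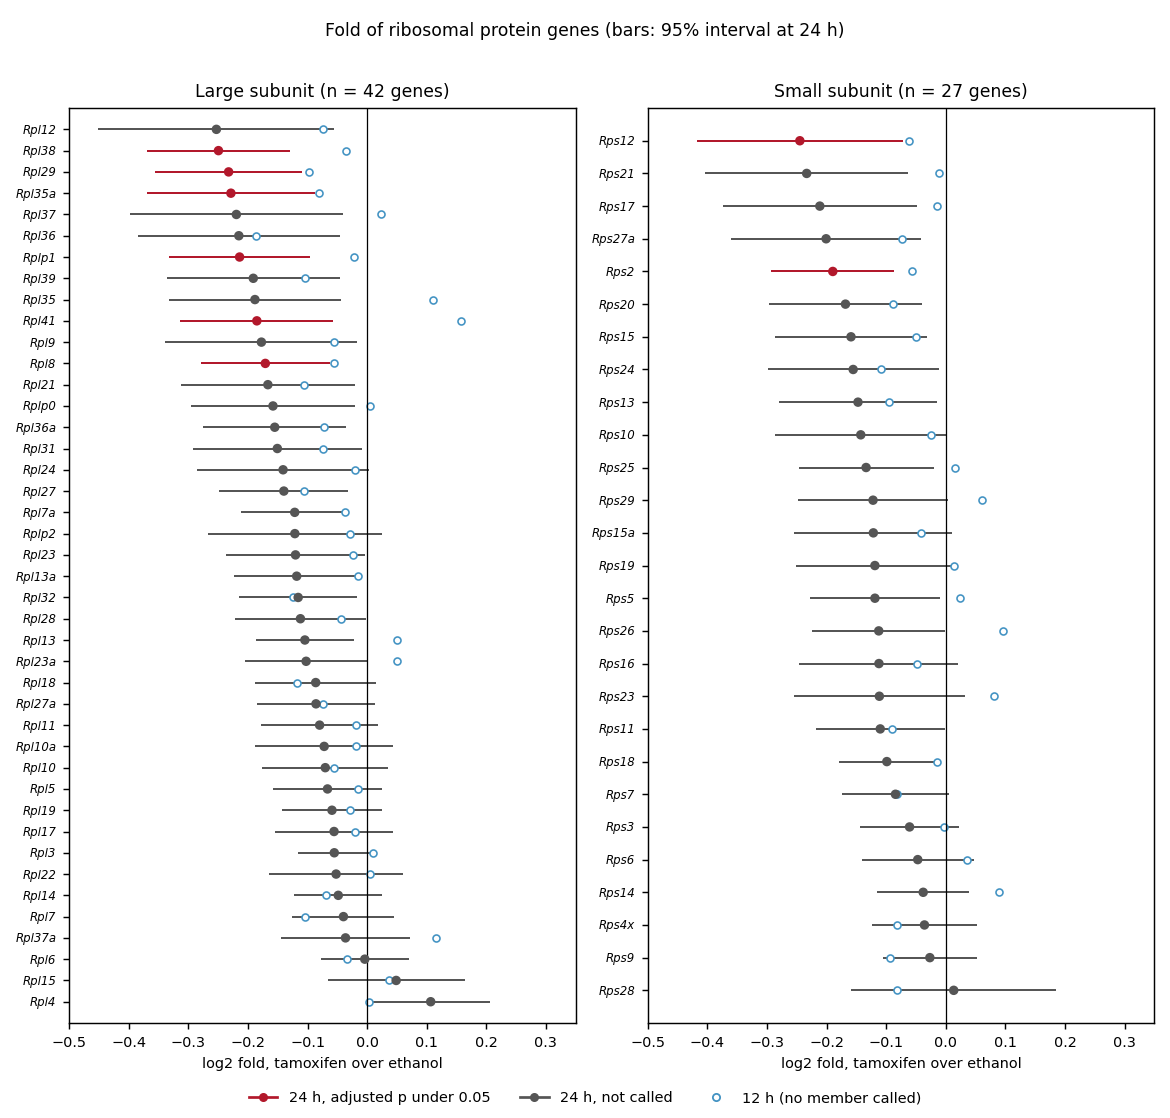
Log2 fold of tamoxifen over ethanol (horizontal axis) of ribosomal protein genes with a mean of at least 50, of the large subunit (left) and the small (right), ordered by the fold at 24 h, without the few genes not reported here. Filled points with bars are the 24 h folds and their 95% intervals, red where the adjusted p was under 0.05, and open points are the 12 h folds, of which none was called; most 24 h points lie left of 0, and Rpl4 is the highest.

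Of the large subunit proteins, those called lower at 24 h sit in several parts of the ribosome. Rpl38, whose loss in mice impairs translation of Hox mRNAs, went from an implied 2218 to 1865 normalised counts. In the authors' deposited table its log2 fold was -0.25 (SE 0.061, adjusted p = 0.000879), and it stood at 84.1% of ethanol with a 95% interval of 77.5% to 91.4%. It had the smallest p of all members. Rpl29, a protein of the subunit surface also known for binding heparin, went from 2348 to 1999, a fold of -0.23 (SE 0.062, adjusted p = 0.0032) in the authors' deposited table. Rpl35a, mutated in some patients with Diamond-Blackfan anaemia, went from 1732 to 1478, with a fold of -0.23 (SE 0.071, adjusted p = 0.0152) in the authors' deposited table. These members lay at about the same share of ethanol, 84.1% to 85.3%, and at 12 h their folds were -0.036, -0.10 and -0.080 with SEs of 0.22, 0.19 and 0.19 in the authors' deposited table.

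Rplp1 belongs to the stalk of the large subunit, which with Rplp0 and Rplp2 recruits the elongation factors that hydrolyse GTP. It was the member with the highest level per kilobase of transcript at both times. Its implied level at 24 h went from 18952 to 16338 normalised counts, 86.2% of ethanol, with a fold of -0.21 (SE 0.060, adjusted p = 0.0051) in the authors' deposited table. Rplp0, the base of the stalk, stood at 19720.2 and 17674 and was not called (-0.16, SE 0.069, adjusted p = 0.124 in the authors' deposited table). The fold of Rplp2 was -0.12 (SE 0.074, adjusted p = 0.316) in the authors' deposited table. All stalk genes thus had negative folds at 24 h, and 1 of them passed the test. At 12 h their folds were 0.0042 for Rplp0, -0.023 for Rplp1 and -0.029 for Rplp2 in the authors' deposited table, with SEs from 0.11 to 0.16.

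Near the peptidyl transferase centre, where peptide bonds form, Rpl8 fell from 18061 to 16044 normalised counts at 24 h (-0.17, SE 0.054, adjusted p = 0.0184 in the authors' deposited table). Rpl3, another protein of that region, had the smallest SE of all members and a fold of -0.055 (SE 0.030, adjusted p = 0.249) in the authors' deposited table. Rpl5 and Rpl11, which enter the ribosome with 5S RNA and bind Mdm2 when free, had folds in the authors' deposited table of -0.067 (SE 0.046) and -0.080 (SE 0.049) and were not called. Rpl41, the shortest ribosomal protein, went from 2083 to 1832, a fold of -0.19 (SE 0.065, adjusted p = 0.0371) in the authors' deposited table. With p-values adjusted over all genes that have one, its adjusted p was 0.0503 and the call was lost. At 12 h its fold was 0.16 with an SE of 0.51 in the authors' deposited table, 3.93 times that of genes of similar mean and the widest of all members.

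The largest negative fold at 24 h among members with a mean of at least 50 did not pass the test. Rpl12, a protein at the stalk base, went from 14602 to 12254 normalised counts, but its SE was 2.06 times that of genes of similar mean (-0.25, SE 0.10, adjusted p = 0.0788 in the authors' deposited table). At the other end, Rpl4, which lines the tunnel through which the new protein leaves, was the only member above 0 at an unadjusted p under 0.05. Its implied level went from 15643 to 16843, 108% of ethanol, with a fold of 0.11 (SE 0.050, p = 0.0331, adjusted p = 0.159) in the authors' deposited table. Rpl39, a short protein of the same tunnel, lay on the other side at -0.19 (SE 0.073, adjusted p = 0.0665) in the authors' deposited table. The fold of Rpl15, linked to Diamond-Blackfan anaemia, was 0.049 (SE 0.058) and that of Rpl6 was -0.0040 (SE 0.037) at 24 h in the authors' deposited table.

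In the small subunit, Rps2 and Rps12 passed the test at 24 h. Rps2 lies with Rps3 at the channel where mRNA enters, and went from 12275 to 10763 normalised counts, 87.7% of ethanol (95% interval 81.7% to 94.1%). Its fold was -0.19 (SE 0.052, adjusted p = 0.00403) in the authors' deposited table, whereas that of Rps3 was -0.061 (SE 0.042, adjusted p = 0.395). Rps12, a protein of the beak of the small subunit, went from 10197 to 8604, with a fold of -0.24 (SE 0.088, adjusted p = 0.0435) in the authors' deposited table. Its call was lost when p-values were adjusted over all genes that have one (adjusted p = 0.0589). Rps21 just missed the threshold, with 5048 and 4294 normalised counts and a fold of -0.23 (SE 0.086, adjusted p = 0.0516) in the authors' deposited table.

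Other small subunit genes with well known roles were not called. Rps6, the substrate of S6 kinase downstream of mTORC1, had a fold of -0.047 (SE 0.047, adjusted p = 0.603) at 24 h in the authors' deposited table. Rps19, the gene most often mutated in Diamond-Blackfan anaemia, had -0.12 (SE 0.067) and Rps27a, made as a fusion with ubiquitin, -0.20 (SE 0.081, adjusted p = 0.0837) in the authors' deposited table. Rps28 had the highest fold of the small subunit genes with a mean of at least 50, 0.013 (SE 0.087) in the authors' deposited table. The 28 small subunit genes with a mean of at least 50 thus ran from -0.24 to 0.013.

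At 12 h the lowest and highest members were mostly not those of 24 h, and each 95% interval held 0. Among the lowest folds of members with a mean of at least 50 were those of Rpl36 (-0.19, SE 0.21), Rpl32 (-0.12, SE 0.15), Rpl18 (-0.12, SE 0.14) and Rps24 (-0.11, SE 0.17) in the authors' deposited table. Among the highest were Rpl41, Rpl37a (0.12, SE 0.16), Rpl35 (0.11, SE 0.18) and Rps26 (0.10, SE 0.15) in the authors' deposited table. Across the 71 members with a mean of at least 50, the folds at the times had a Pearson r of 0.29 and a Spearman rho of 0.25, given as a description over genes that share libraries within each time. At both times 51 of 74 members were below 0 and 3 above.

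The fold at 24 h was lower than that at 12 h for 62 of 74 members, but the difference was not beyond its error for any of them. Per gene, the difference of the folds was divided by the root of the summed squared SEs, and p-values were adjusted over 14981 genes. The median difference, 24 h minus 12 h, was -0.083 for the members and 0.010 for all genes, and the median SE of a member's difference was 0.16. By this z test 0 members were called in either direction and 0 had an unadjusted p under 0.05. Of all genes 0.0134% were called lower at 24 h and 0.0% higher, and 245 of 14981 had an unadjusted p under 0.05. That is fewer than this threshold gives without any difference. The test was thus conservative here, and the 0 members do not exclude a difference. Largest relative to their error were the differences of Rpl35 (-0.30, SE 0.19), Rps21 (-0.22, SE 0.15) and Rpl37 (-0.24, SE 0.17). A larger response at 24 h than at 12 h was thus not shown for single members.

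The promoters are shown because the start of these mRNAs carries the pyrimidine tract. RefSeq (GRCm38.p6) promoters matched 55 of the 75 members. Shown are the windows from 70 bases before to 30 after the start for the 5 of 8 genes called lower at 24 h that had a match and for Rpl4 and Rpl15, among the highest folds, with the longest run of C and T in capitals:

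Rpl38 (chr11:114668510-114668609, plus strand): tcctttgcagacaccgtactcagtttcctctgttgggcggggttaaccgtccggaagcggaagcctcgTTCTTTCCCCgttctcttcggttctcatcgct
Rpl35a (chr16:33056412-33056511, plus strand): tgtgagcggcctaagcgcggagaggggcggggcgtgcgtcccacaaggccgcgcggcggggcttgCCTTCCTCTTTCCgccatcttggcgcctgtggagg
Rps12 (chr10:23787180-23787279, minus strand): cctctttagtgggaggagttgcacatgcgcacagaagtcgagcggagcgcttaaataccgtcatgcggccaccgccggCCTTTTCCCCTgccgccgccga
Rps2 (chr17:24719993-24720092, plus strand): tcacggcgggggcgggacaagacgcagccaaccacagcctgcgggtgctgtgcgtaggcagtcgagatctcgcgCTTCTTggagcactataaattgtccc
Rpl41 (chr10:128549139-128549238, minus strand): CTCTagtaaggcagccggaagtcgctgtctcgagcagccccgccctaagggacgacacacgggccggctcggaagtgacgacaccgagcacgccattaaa
Rpl4 (chr9:64173317-64173416, plus strand): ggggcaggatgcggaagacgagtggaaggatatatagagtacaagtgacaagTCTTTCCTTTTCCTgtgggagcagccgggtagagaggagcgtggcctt
Rpl15 (chr14:18270957-18271056, minus strand): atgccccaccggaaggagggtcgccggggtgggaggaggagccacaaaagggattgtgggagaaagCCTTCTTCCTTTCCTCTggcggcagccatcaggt

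In Rpl38, Rpl35a and Rpl15 the run spans the start, 30 bases from the right end of each window. It is 10 bases long in Rpl38, 13 in Rpl35a (the middle of 3 listed starts) and 17 in Rpl15. That of Rps12 (11 bases) lies after the start and that of Rpl4 (14 bases) before it, while the windows of Rps2 and Rpl41 hold no run over 6 and 4. Long runs thus occur in genes called lower and in the genes with the highest folds. All positions are relative to the annotated start. A tract at another start could lie outside the window, so a short run here does not show that the mRNA lacks one. Over all matched members the median longest run was 10 bases, against 7 for all 27025 genes with a promoter, and a run of at least 10 bases occurred in 31 of 55 members (56.4%) against 20.9% of all genes.

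Motifs were searched by their letters over the whole promoters, from 250 bases before to 50 after the start. The core CCGGAAG of the ETS factors, on both strands, was in 22 of 55 members (40.0%) and in 9.93% of all genes. The pyrimidine motif CTCTTTC, forward strand, was in 23.6% against 4.60%, and its shorter form CTTTCC, which can overlap it, in 40.0% against 16.0%. The GC box CCCGCCC, bound by KLF and SP factors and searched on both strands, was in 45.5% against 27.9%, and the CACC box CCCACCC of KLF factors, on both strands, in 9.09% against 19.4%. TATAAA was in 10.9% of members and 15.7% of all genes, and the YY1 core AAGATGGC in 9.09% and 3.19%, both strands. These are matches of letters in a window and not sites of binding.

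Ribosomal protein mRNAs are short, and at 24 h the median folds of other abundant coding genes were lower in shorter length ranges. The shortest principal transcript (GENCODE M21) had a median of 681 bases over the members, from 271 to 3706, against 3441 bases for other coding genes with a mean of at least 1000. At 24 h the other coding genes of 401 to 600 bases had a median fold of -0.15 (28 genes), close to the -0.15 of the 19 members in that range. From 601 to 800 bases the medians were -0.12 (48 other genes) and -0.11 (18 members). For 801 to 1000 bases they were -0.064 (59) and -0.12 (13), and for 1001 to 1500 bases -0.052 (191) and -0.086 (11). Other coding genes over 2000 bases had a median of -0.0055 (2435). The medians of members and other genes were thus close from 401 to 800 bases, and those of members lower from 801 to 1500. Up to 400 bases the 5 members had a median of -0.22 with 1 called, and 1 other gene alone stood in that range at -0.17.

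Among the other genes of 401 to 600 bases 35.7% were called lower at 24 h, and among the members of that range 26.3%. From 601 to 800 bases 27.1% of the other genes and 0 of 18 members were called lower, and from 801 to 1000 bases 18.6% and 15.4%. The differences between members and other genes of like length were not tested. With each member centred on the median of the other genes of its length range, possible for 66 members and not for the 5 shortest, the median at 24 h was -0.0047, or -0.0058 for the large and -0.0036 for the small subunit. Within the members, the 23 shortest (271 to 589 bases) had a median fold of -0.15 with 6 called, the 25 of 597 to 860 bases -0.11 with 1 called, and the 23 longest -0.11 with 1 called. Across 71 members the fold at 24 h had a Pearson r of 0.47 and a Spearman rho of 0.46 with coding length, against 0.15 and 0.22 across 3085 other genes. With transcript length they were weaker in the members, 0.20 and 0.33, and near the 0.17 and 0.23 of the other genes. At 12 h the values with coding length were -0.048 and -0.017 for the members, and the median folds of other short genes lay between -0.026 and -0.056 for 401 to 1500 bases. These correlations are over genes that share libraries, and what made short transcripts lower was not tested.

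**Figure D3:**
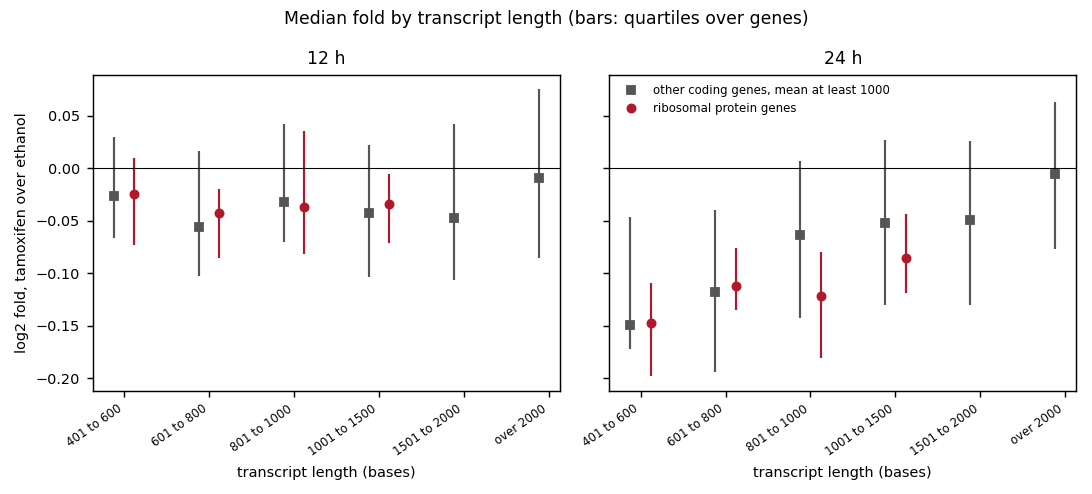
Median log2 fold of tamoxifen over ethanol (vertical axis) by transcript length (horizontal axis, bases) for the ribosomal protein genes (red) and other coding genes with a mean of at least 1000 (grey) at 12 h and 24 h, with bars for the quartiles over genes. The range up to 400 bases, where 5 members had a median of -0.22 at 24 h, is left out for both. Longer ranges with few members are not drawn for the members. At 24 h both medians are near -0.15 at 401 to 600 bases and the other genes reach -0.0055 over 2000 bases, and at 12 h the medians of both stay close to 0, where centring on length turns the members' median to 0.0026.

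Genes beside the members give the setting. A few ribosomal proteins fall outside the symbol rule, and none of Rpsa (-0.026, SE 0.040), Fau (-0.087, SE 0.054) and Rps3a1 (-0.078, SE 0.043) was called at 24 h in the authors' deposited table. Fau is made as a fusion with a ubiquitin-like part. The paralog Rpl7l1 fell by 0.16 (SE 0.053, adjusted p = 0.0293) at 24 h in the authors' deposited table. Mitochondrial ribosomal proteins, which serve the separate ribosome of mitochondria, had a median of -0.071 over 77 genes at 24 h and -0.061 at 12 h. Of these 61 and 59 lay below 0, and DESeq2 called 0 at either time, while at an unadjusted p under 0.05 there were 9 lower and 1 higher at 24 h and 0 at 12 h. The difference between the cytosolic and mitochondrial sets was not tested.

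Genes that assemble ribosomes lay below 0 as well. Of 54 assembly and nucleolar genes, 48 were below 0 at each time, with medians of -0.12 at 12 h and -0.10 at 24 h, and 10 (18.5%) were called lower and 0 higher at 24 h, against 0 at 12 h. Of all genes 6.52% were called lower at 24 h, and 12.5% of those with a mean of at least 1000. Tsr1, needed to mature the small subunit, fell by 0.21 (SE 0.047, adjusted p = 0.000169), and Nop56, a core protein of the particles that methylate ribosomal RNA, by 0.17 (SE 0.038, adjusted p = 0.000216) at 24 h in the authors' deposited table. Sbds, which helps release Eif6 from the large subunit, fell by 0.20 (SE 0.051, adjusted p = 0.00243), and the helicase Ddx21 by 0.13 (SE 0.034, adjusted p = 0.00265) in the authors' deposited table. Of 19 genes of RNA polymerase I and 5S transcription, with a median of -0.030, Polr1d, a subunit shared by RNA polymerases I and III, was called (-0.25, SE 0.078, adjusted p = 0.0179 in the authors' deposited table).

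Calls among other mRNAs with a pyrimidine start were few and near the shares of all genes. The 19 translation factor genes and others of this class had medians of 0.0037 at 12 h and -0.048 at 24 h. At 24 h 1 of them was called lower (5.26%) and 1 higher. Of all genes with an adjusted p at 24 h, 6.52% were called lower and 5.9% higher. Tpt1, an abundant growth-linked protein, fell by 0.22 (SE 0.064, adjusted p = 0.0097) and Pabpc1, which binds poly(A) tails, rose by 0.11 (SE 0.036, adjusted p = 0.021) in the authors' deposited table. Among 22 genes of mTORC1 and translation control, the translation repressor Eif4ebp1 (-0.18, adjusted p = 0.0122) and the scaffold Eif4g1 (-0.14, adjusted p = 0.031) fell and the mTOR inhibitor Deptor rose (0.23, adjusted p = 0.0121) at 24 h in the authors' deposited table. The 2 lower calls were 9.09% of this list, against the 6.52% of all genes. Of 8 genes of ribosomal protein sensing and p53, including Mdm2 and Cdkn1a, DESeq2 called 0 at either time. At 24 h 2 of them, Mdm4 (0.10, SE 0.045) and Trp53 (0.13, SE 0.063), had an unadjusted p under 0.05 in the authors' deposited table and at 12 h 0 did. The lists differ in transcript length and level, and differences between them were not tested.

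**Figure D4:**
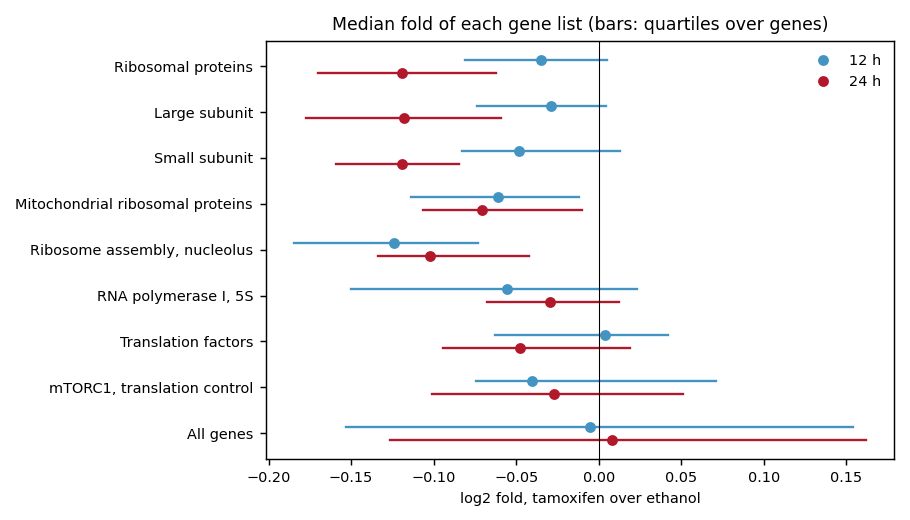
Median log2 fold of tamoxifen over ethanol (horizontal axis) of each gene list at 12 h (blue) and 24 h (red), with bars for the quartiles over genes. The ribosomal protein genes have a median of -0.12 at 24 h and the assembly and nucleolar genes -0.10, and at 12 h the values are -0.035, which turns to 0.0026 under length centring, and -0.12.

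Levels among members ranged widely, and a few were nearly uncounted. Per kilobase of transcript, the 71 members with a mean of at least 50 had a median mean level of 10472 normalised counts at 12 h and 6024 at 24 h. Rplp1 was highest at both times (58990 and 35361 per kilobase) and Rps20 lowest (1745 and 985), its only principal transcript being 3706 bases long. The rank of Rps20 rests on that annotated length. Its mean at 12 h, 6467, was near the median of 7183 over the 74 members with a p. There were 4 members under a mean of 50, although ribosomal proteins are made in near equal amounts. Rpl26 was listed at 0 at both times, while Rps27 had means of 17.7 and 13.3, Rpl30 of 27.6 and 7.11 and Rpl34 of 46.1 and 20.3 in the authors' deposited table. Rpl30 had no adjusted p at 24 h. Of the 50-base windows of their transcripts, 71.3% (Rpl26), 98.6% (Rps27), 76.4% (Rpl30) and 50.6% (Rpl34) also occurred in transcripts of other genes, while the other 71 members ranged from 0% to 95.1% with a median of 60.0%. How reads that match several places were counted is not given in the sources used here, so the values of these 4 members are uncertain.

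Copies also touch called members. Windows shared with other genes made up 90.1% of Rps12 (25 other genes), 79.0% of Rps2 (71) and 78.5% of Rpl29 (84), so those values may be split between a gene and its copies. In Rpl8 they made up 7.86%. The library kit does not mark strand, and 5 members have over 10% of their exon bases under a gene on the other strand, with Rpl35, Rpl23a and Rpl5 at 68.3%, 55.4% and 46.6%. None of the 8 called members is among them. In the GRCm38 annotation the members lie on 19 chromosomes, with 14 of them on chromosome 7. Rpl38 is at chr11:114668524-114672331, + strand, Rps2 at chr17:24718116-24721929, + strand, Rplp1 at chr9:61913284-61914542, - strand and Rpl8 at chr15:76904078-76906314, + strand.

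The spread of the libraries around these folds was somewhat wider for the members than for genes of similar mean. The ratio of a member's SE to the running median of genes of similar mean had a median of 1.13 at 12 h and 1.14 at 24 h, and was over 1 for 59 and 54 of 74 members. It reached 1.32 in the median of the small subunit at 24 h.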

How the data were processed

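The samples are RNA-seq libraries of a mouse biliary epithelial line, made with a TruSeq v2 kit, which marks no strand, from total RNA per the labels' protocols. HISAT2, DESeq2 and mm10 are named in the submitters' processing notes without versions. The sources used here name no counting tool or annotation. Per the file headers, the authors' tables hold for each time the mean normalised count (baseMean, a signal over all libraries of that time), the log2 fold of tamoxifen over ethanol and its error, a Wald score, a p-value and one adjusted for all genes tested. The deposited p-value is given for 15704 genes at 12 h and 15819 at 24 h, and the adjusted p-value for 13044 and 11648.

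The lowest means shared by many genes were taken, at most as many values as libraries. Of the 7 values at 12 h, 3 had negative and 4 had positive folds. This split, and not the number of values, matches the numbers of ethanol and tamoxifen libraries if a positive fold means more after tamoxifen. At 24 h, with 4 on each side, this cannot check the direction.

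Everything else was computed in Python 3.11.15 with pandas 2.3.3 and scipy 1.17.1. Group levels were derived from the mean, the fold and the library numbers, and 95% intervals from 1.96 SE. The test of the difference between times was tried on simulated folds with planted differences far larger than those of the members. It therefore does not show how the test performs at differences of their size. The test design assumed comparison columns without values per library, which the files hold. Transcript lengths and shared windows come from GENCODE M21 (GRCm38), using the shortest principal coding transcript of a gene. Length centring used ranges with at least 20 other coding genes with a mean of at least 1000. SE ratios used the running median of 201 genes ordered by mean.

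The members and lists were chosen with earlier results of these data known. Members were named by rank of fold, mean or p, and those named for their role in the ribosome were chosen after their values were seen. A few genes that these rules reach are not reported here. Alternatives were the adjustment over all genes, other thresholds, weighting, a higher minimum mean, centring, and 4 further ribosomal protein genes.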

Additional observations from a re-analysis of the deposited data

How the results depend on the processing

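Calls were recomputed under other thresholds, the adjustment over all genes and a wider member list, medians under another minimum mean, weighting, 2 kinds of centring and the wider list, and the difference between times under 3 alternatives. At 24 h the members called numbered 8 with the deposited adjusted p, where 6.52% of all genes were called lower. At an unadjusted p under 0.05 they numbered 41 (40 lower and 1 higher), against 9.08% of all genes lower and 8.91% higher. They numbered 6 with p-values adjusted over all genes, 24 at an adjusted p under 0.1 and 4 at 0.01. The shares of all genes at these last 3 settings were not computed, so these counts cannot be set against a background. Under the adjustment over all genes the calls of Rpl41 (0.0503), Rps12 (0.0589), Nob1 (0.0574), Heatr1 (0.0658) and Cldn4 (0.0542) passed 0.05. Calls at 12 h and of the difference between times stayed at 0 in each alternative run. Centring on other coding genes of the same length range, chosen after seeing the data, moved the medians at 24 h to -0.0047 for all members, -0.0058 for the large and -0.0036 for the small subunit. At 12 h the same centring reversed the median of all members to 0.0026 and that of the large subunit to 0.0091, and the small subunit stayed below 0 at -0.0054. Centring on genes with a mean of at least 1000, which shifts folds by 0.020, gave -0.099 at 24 h and -0.015 at 12 h, and weighting by the SE gave -0.096 and -0.028.

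No paired analysis was possible because the files hold means and folds per comparison and no values per library were used. For the same reason leaving out each library, the replicate block, and edgeR with another normalisation were not run, so it is not known whether 1 library decides a call or a median. Low counts limit Rpl30, Rps27 and Rpl34, whose means were under 50. The median SE of the members was 0.15 at 12 h and 0.059 at 24 h although mean totals were higher at 12 h (13.9 M against 11.8 M), and the cause was not tested.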
